A study of Ooceraea biroi with 96 samples.

Results

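A set of genes whose level in the brain was much lower at day 8 than at day 1 was examined in the clonal raider ant, Ooceraea biroi. Counts were expressed per 1e6 counts of the library (CPM), and a gene was taken as a member when, in each of 4 genotype and environment groups, its mean at day 1 was at least 1 CPM and its mean at day 8, plus an offset of 0.1 CPM, was at most 0.25 of the day 1 mean plus the same offset. This rule left 91 genes of the 13755 features in the table, or of the 8756 that reached 1 CPM at day 1 in all 4 groups. The members were thus chosen by their measured levels at both ages, and every value that sets day 8 against day 1 is given as a description without a test. The study moved newly hatched larvae of 2 clonal lineages, M and B, into social environments of either lineage, and whole brains of single ants were sequenced at an age of 8 days or 1 day. Groups are written as genotype in environment: MinM is genotype M in environment M (14 brains at day 8 and 20 at day 1), MinB is genotype M in environment B (12 and 14), BinM is genotype B in environment M (10 and 9), and BinB is genotype B in environment B (10 and 7). The labels give no source colony for an individual and do not state the stage from which age was counted, and the sample titles of the 2 ages have different forms, so age and any such set cannot be told apart.

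Clonal raider ants live without queens, and workers produce daughters from unfertilised eggs, so that nestmates of a lineage are close to genetically identical. In ants, the first days of adult life are a time of hardening cuticle, developing glands and a still maturing brain, in which young workers stay inside the nest. The annotation used here pairs the gene identifiers with classes and positions but with no product names, so no function is given for any member, the labelled tissue was not checked against defining markers of brain or of other tissues, and protein and promoter sequences were not analysed here. In RNA from whole brains, fewer cells of a type and less RNA per cell cannot be told apart.

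Libraries held between 10.7 and 26.96 megacounts. The members together took 0.0470% to 0.0798% of a library at day 8 and 0.179% to 2.92% at day 1. Of the 96 libraries, 8 stood apart from the others of their age by their rank correlation over all genes. They were MinM replicates 6 and 9, MinB replicates 8 and 11 and BinM replicate 2 at day 8, and MinM replicate 16, MinB replicate 12 and BinB replicate 9 at day 1. Without these libraries the rule chose 90 genes, of which 84 were among the 91.

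The 91 genes covered a wide span of levels at both ages. At day 8, 13 had a mean over the 4 groups below 0.1 CPM, 38 lay between 0.1 and 1 CPM, 34 between 1 and 10 CPM, 3 between 10 and 100 CPM and 3 at or above 100 CPM. At day 1, 38 lay between 1 and 10 CPM, 41 between 10 and 100 CPM and 12 at or above 100 CPM. Counts above 0 were present in every library of the age for 39 members at day 8 and for 78 at day 1. In 20 members, the highest of all day 8 brains was below the lowest of all day 1 brains, against 45 (0.447%) of the 10056 genes tested between the ages, a count that the choice of members favours. In the edgeR fit of all 8 groups the log2 fold change of day 8 over day 1 ranged from -10.57 to -2.24 over the members with a median of -3.79, where the median over all genes was 0.01. All 91 were lower at day 8 at an edgeR adjusted p under 0.05, as their choice implies, against 35.4% of all genes tested. That threshold only sets the members beside all genes and is no test of them.

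**Figure D1:**
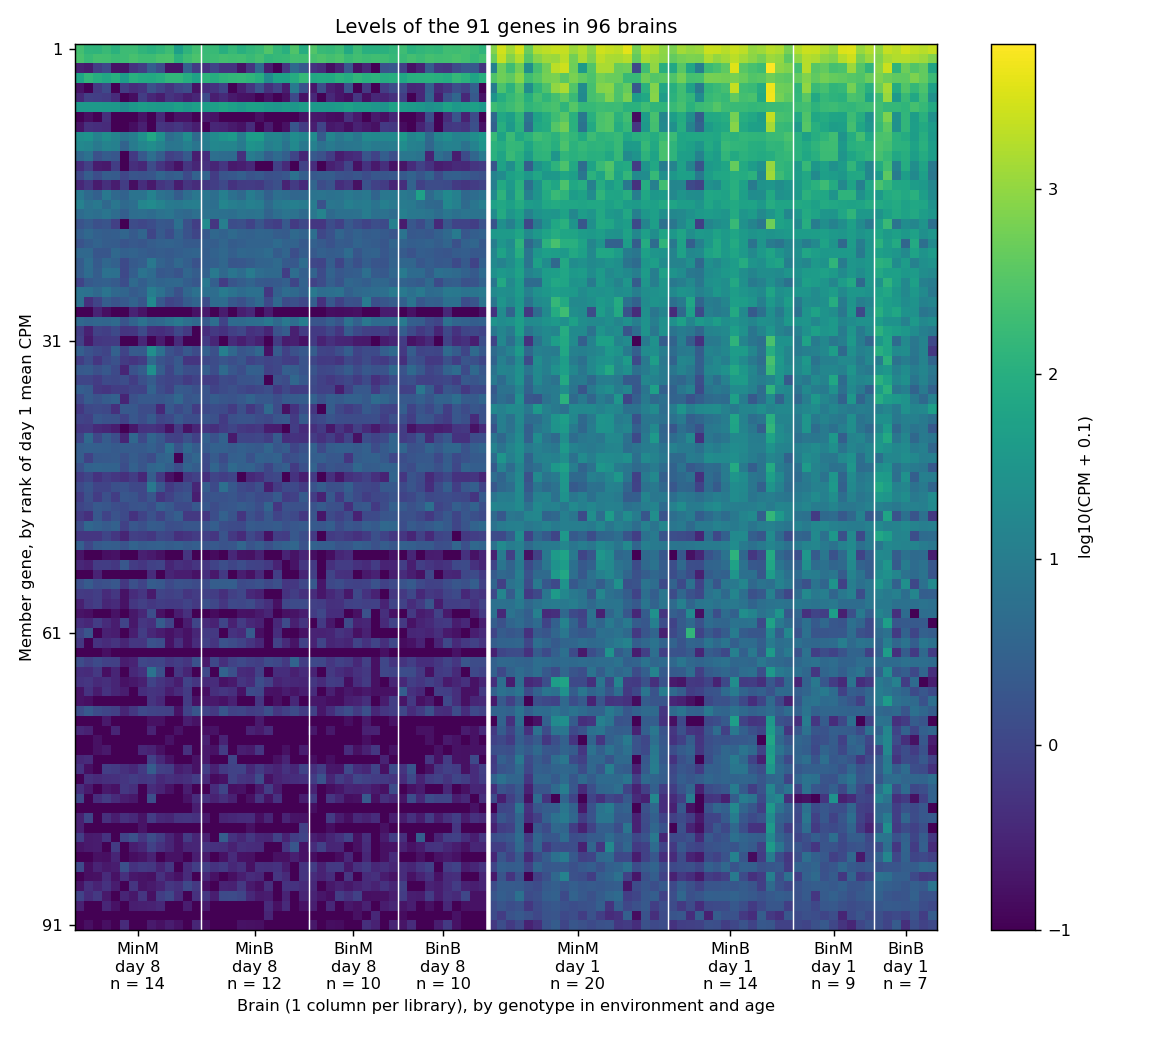
Level of each of the 91 genes (rows, from the highest to the lowest mean at day 1) in each of the 96 brains (columns, by group, day 8 left and day 1 right), as log10(CPM + 0.1). The day 8 block is dark for most genes outside the first rows, whereas columns of the day 1 block differ in brightness within a group, MinM replicate 17 and MinB replicate 12 among them.

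A few members held most of the counts, a share that also depends on gene length. The first 5 took 81.2% of the members' summed CPM at day 8 and 65.01% at day 1. The largest share of counts at day 1 was that of the protein-coding gene LOC105287190 (chromosome 6, 10653981 to 10696033, minus strand), with 25.8% of the members' sum. At day 8 its lowest, median and highest values were 50.1, 136 and 222 CPM in MinM brains, 92.8, 155 and 304 CPM in MinB brains, 79.5, 149 and 298 CPM in BinM brains, and 114, 169.9 and 221 CPM in BinB brains. At day 1 they were 489, 1866 and 3790.0 CPM in MinM brains, 643, 1426 and 2549 CPM in MinB brains, 1099, 1708 and 3591 CPM in BinM brains, and 980.0, 2117 and 2838 CPM in BinB brains. Every day 8 brain was below every day 1 brain of its own and of the other groups. The ratio of means was 12.03-fold in MinM, 9.44-fold in MinB, 13.6-fold in BinM, and 12.1-fold in BinB. The gene overlaps LOC105287192 on the opposite strand, and since the sources used here do not say whether counting used strand, reads of the 2 genes may not have been told apart.

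LOC105274842 (chromosome 8, 3429098 to 3464438, minus strand), also protein-coding and with LOC105274841 on its opposite strand, held the largest share at day 8, 31.9% of the members' sum. Its day 8 brains had as lowest, median and highest values 119, 207 and 272 CPM in MinM, 142, 194 and 225 CPM in MinB, 163, 213 and 284 CPM in BinM, and 159.9, 215 and 254 CPM in BinB. The day 1 brains had 325, 1222 and 2324 CPM in MinM, 373, 952 and 1952 CPM in MinB, 629, 1178 and 2662 CPM in BinM, and 743, 1442 and 1735 CPM in BinB. The ages did not overlap, and day 8 brains lay close together while day 1 brains of a group ranged over several-fold. Its means were lower at day 8 by 5.64-fold in MinM, 5.07-fold in MinB, 6.302-fold in BinM, and 6.18-fold in BinB. Per length, LOC105274842 stood at 59.3 CPM per kb of exon at day 8 and 345 at day 1, and LOC105287190 at 26.1 CPM per kb of exon at day 8 and 308 at day 1.

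Among the other genes with many counts, LOC105277400 (chromosome 11, 9323157 to 9326476, minus strand; LOC105277393 lies on the opposite strand) spanned 19.7 to 158 CPM over the day 8 brains, against 168 to 869 CPM over the day 1 brains, with no overlap between the ages. Its means differed by 4.63-fold in MinM, 4.16-fold in MinB, 4.55-fold in BinM, and 4.59-fold in BinB. LOC105274907 (chromosome 1, 16060181 to 16067941, minus strand) spanned 20.97 to 61.02 CPM over the day 8 brains, against 81.7 to 333 CPM over the day 1 brains. Its ratio in BinB, 0.248, was among the 3 values nearest to the limit of the rule from inside. The others were LOC105274974, at 0.249 in MinM, and LOC105285557, at 0.241 in BinM. Just outside stood LOC105284088 at 0.251 in MinB, LOC105279685 at 0.253 in BinM and LOC105285243 at 0.254 in MinM. LOC105284088 would have had the most counts of the set, with means of 663.9 CPM at day 8 and 3487 CPM at day 1 in MinM.

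The largest differences between the ages were found in genes that were readily measured at day 1 and close to 0 at day 8. In 7 members the means were at least 100-fold apart in all 4 groups: LOC109611483, LOC105275422, LOC113562077, LOC113561968, LOC105287113, LOC105285555 and LOC113562088, all protein-coding. The folds include the offset of 0.1 CPM on both means and so understate the difference where day 8 is near 0. The largest log2 fold change, -10.57 ± 0.54 (SE), was that of LOC109611483 (chromosome 5, 7171986 to 7173486, minus strand). At day 8 its lowest, median and highest values were 0, 0 and 0.343 CPM in MinM, 0, 0 and 0.1099 CPM in MinB, 0, 0.0965 and 0.363 CPM in BinM, and 0, 0.129 and 1.72 CPM in BinB, and 21 of the day 8 libraries had no count. At day 1 they were 0.0469, 98.5 and 341 CPM in MinM, 2.37, 82.2 and 2221 CPM in MinB, 25.7, 74.5 and 296 CPM in BinM, and 26.2, 106 and 681 CPM in BinB. Of the day 1 brains, MinM replicate 17, with 0.0469 CPM, lay within the range of day 8 and all others were above it. The means differed by 733-fold in MinM, 2209-fold in MinB, 491-fold in BinM, and 304-fold in BinB, where MinB replicate 12 had 2221 CPM at day 1. Without the libraries that stood apart the folds were 661 in MinM, 985 in MinB, 485 in BinM and 347 in BinB, and the same 7 members were at least 100-fold apart in all groups.

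LOC105275422 (chromosome 3, 6449680 to 6453994, plus strand) was the third in CPM at day 1 and its folds were 757-fold in MinM, 779-fold in MinB, 732-fold in BinM, and 629-fold in BinB. Without the libraries that stood apart they ranged from 554 in MinB to 869 in MinM. Lowest, median and highest values at day 8 were 0.0703, 0.498 and 2.77 CPM in MinM, 0, 0.424 and 4.21 CPM in MinB, 0, 0.256 and 1.92 CPM in BinM, and 0.0744, 0.584 and 2.51 CPM in BinB. Those at day 1 were 1.03, 492 and 2589.9 CPM in MinM, 10.4, 295 and 6047 CPM in MinB, 136, 321 and 1833 CPM in BinM, and 61.2, 429 and 2459 CPM in BinB. The ages overlapped by 1 day 1 brain, again MinM replicate 17, and within each group the day 1 brains spread over more than 10-fold. Its next 2 neighbours along the chromosome among the members, LOC105275423 and LOC105275424, lie on the same strand downstream of it and were lower per length. Day 1 levels were 431 CPM per kb of exon for LOC105275422, 2.76 for LOC105275423 and 1.29 for LOC105275424. LOC105275423 averaged 0.0173 ± 0.0469 CPM in MinM, 0.0652 ± 0.207 CPM in MinB, 0.01199 ± 0.0255 CPM in BinM, and 0.0481 ± 0.152 CPM in BinB at day 8, and 1.89 ± 1.81 CPM in MinM, 3.76 ± 10.01 CPM in MinB, 1.69 ± 1.61 CPM in BinM, and 4.12 ± 8.63 CPM in BinB at day 1 (SD). LOC105275424 ranged over 0 to 1.04 CPM over the day 8 brains, against 0 to 54.4 CPM over the day 1 brains.

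LOC113561968 (chromosome 5, 5996500 to 5998319, minus strand) and LOC105287113 (chromosome 5, 5999807 to 6002947, minus strand) are adjacent genes on 1 strand, and both were among the 6 largest falls. For LOC113561968, day 8 brains had lowest, median and highest values of 0, 0.476 and 1.41 CPM in MinM, 0, 0.422 and 9.07 CPM in MinB, 0, 0.3397 and 1.56 CPM in BinM, and 0, 0.629 and 2.68 CPM in BinB. Its day 1 brains had 1.97, 272 and 1494 CPM in MinM, 8.59, 186 and 4475 CPM in MinB, 104, 177 and 967 CPM in BinM, and 51.7, 265 and 1388 CPM in BinB. In LOC105287113 the corresponding spans were 0 to 1.78 CPM over the day 8 brains, against 0.469 to 1400.0 CPM over the day 1 brains. The folds of the first were 583-fold in MinM, 472-fold in MinB, 468-fold in BinM, and 373-fold in BinB, and those of the second 413-fold in MinM, 554-fold in MinB, 290.0-fold in BinM, and 265-fold in BinB. Per length, LOC113561968 stood at 0.886 CPM per kb of exon at day 8 and 459 at day 1, and LOC105287113 at 0.181 CPM per kb of exon at day 8 and 91.1 at day 1. In each gene at most 2 of the day 1 brains lay within the range of day 8.

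LOC113562077 (chromosome 6, 14523532 to 14526004, minus strand) shares sequence span with LOC105285882 on its own strand and lies opposite LOC105285881, itself a member, so that its count is uncertain where reads could be split between them. It spanned 0 to 3.85 CPM over the day 8 brains, against 18.7 to 4757 CPM over the day 1 brains, without overlap, and its folds were uneven, 570.0-fold in MinM, 1569-fold in MinB, 557-fold in BinM, and 196-fold in BinB. Without the libraries that stood apart the MinB fold was 790.1. The opposite member LOC105285881 spanned 0 to 0.203 CPM over the day 8 brains, against 0 to 68.1 CPM over the day 1 brains. LOC113562088 (chromosome 6, 11749142 to 11760957, minus strand) has the longest exons of these genes, 11.167 kb, and with 0.004398 CPM per kb of exon at day 8 and 2.52 at day 1 the lowest level per length. No day 8 brain of LOC113562088 exceeded 0.249 CPM, and no day 1 brain was below 0.281 CPM. Its folds were 213-fold in MinM, 111-fold in MinB, 155-fold in BinM, and 295-fold in BinB.

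**Figure D2:**
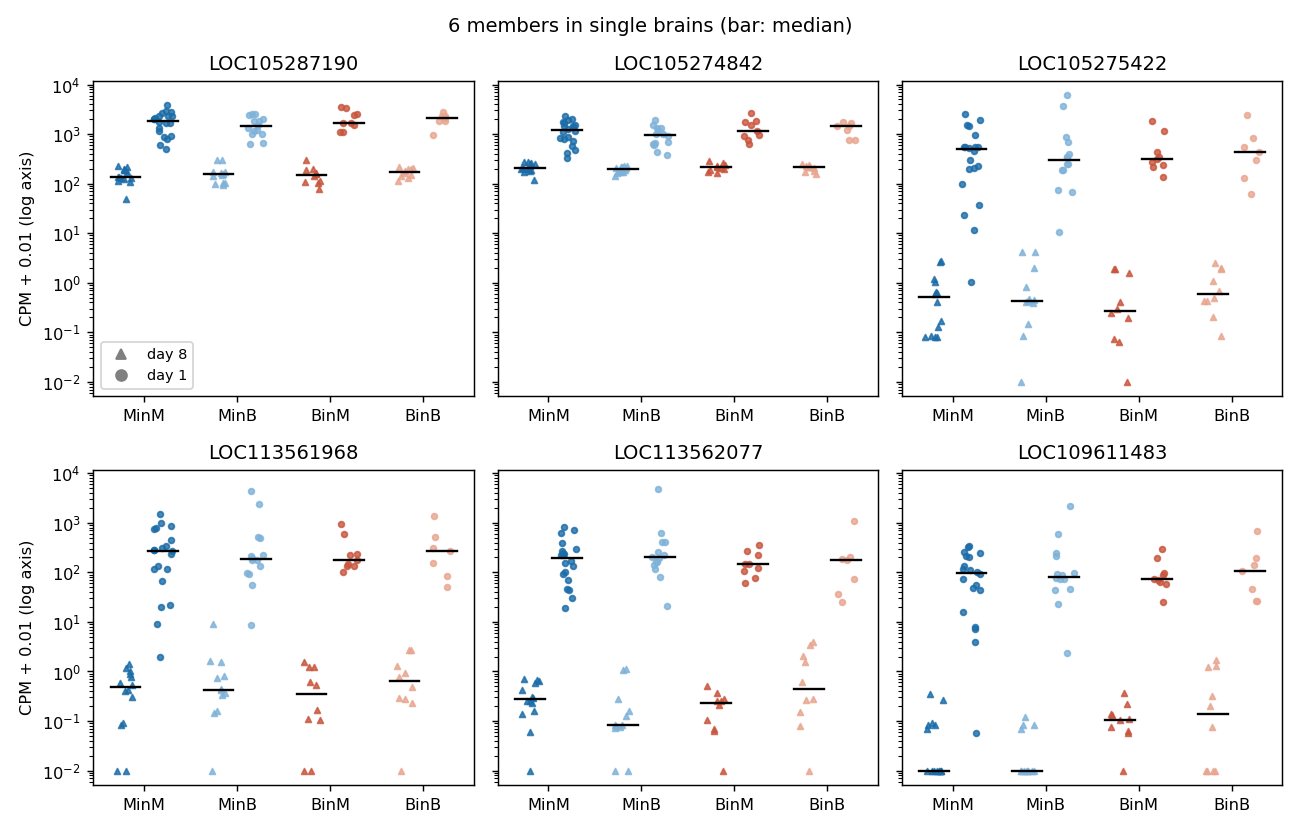
CPM in single brains (log axis, 0.01 CPM added so that libraries at 0 are shown) of 6 members, by genotype in environment, with triangles for day 8, circles for day 1 and bars for medians. In LOC105287190 and LOC105274842 all day 8 brains lie below all day 1 brains, and the other 4 genes reach at most 9.07 CPM at day 8 and range from 0.0469 to 6047 CPM at day 1.

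The members differed more from each other in the size of the fold than the 4 groups did. Median folds over the members were 9.42 in MinM, 10.1 in MinB, 10.6 in BinM and 12.3 in BinB. Without the libraries that stood apart they were 10.3, 8.15, 10.02 and 12.1, and in MinB the fold of 31 members became over 1.5 times smaller. At least 10-fold lower means at day 8 were found in 31 members in all 4 groups. In 43 members the 4 folds lay within 2 times of each other, and the median ratio of the largest to the smallest fold was 2.09. In 3 members they differed by over 5 times: LOC113562077, LOC109611483 and LOC105275345. Taken singly, the limit was met by 135 genes in MinM, 178 in MinB, 150 in BinM and 181 in BinB, and the 91 are those that met it in each.

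At the low end, 9 members had no count in most of the day 8 libraries. LOC105286895 and LOC105287590 each were at 0 in 43 of them, LOC113562081 in 41, LOC105275423 in 39, LOC105282591 and LOC105285881 in 37, and LOC105275424, LOC105280577 and LOC113562088 in 27. Of these, LOC113562088, LOC105287590, LOC105280577 and LOC113562081 had counts in every day 1 library. Over the MinM day 1 brains, the smallest SD relative to the mean belonged to LOC105278909 (chromosome 4, 13106574 to 13115684, minus strand) and LOC105277891 (chromosome 1, 5179238 to 5182635, minus strand). LOC105278909 averaged 0.751 ± 0.371 CPM in MinM, 0.938 ± 0.809 CPM in MinB, 0.614 ± 0.318 CPM in BinM, and 0.768 ± 0.467 CPM in BinB at day 8, and 4.34 ± 1.02 CPM in MinM, 4.73 ± 1.39 CPM in MinB, 4.601 ± 0.944 CPM in BinM, and 5.08 ± 0.5104 CPM in BinB at day 1 (SD). LOC105277891 spanned 1.496 to 20.5 CPM over the day 8 brains, against 27.1 to 91.02 CPM over the day 1 brains. At the other end, LOC105287229 and LOC113561465 had day 1 levels set by a few brains. In BinM, LOC105287229 had a median of 0.281 CPM at day 1 and a highest value of 26.8 CPM, in replicate 6. In MinM, LOC113561465 had a median of 1.07 CPM and a highest value of 62.8 CPM at that age. For both, the ages overlapped widely, with 36 and 31 day 1 brains at or under the highest day 8 brain.

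By gene class, 85 members (93.4%) were protein-coding and 6 (6.59%) were long noncoding RNAs (lncRNAs), against 93.6% and 6.10% of all genes tested between the ages. The lncRNAs were LOC105276973, LOC109611312, LOC105277613, LOC105288186, LOC113562924 and LOC105283427. LOC105276973 (chromosome 3, 10961150 to 10962952, minus strand) had the most counts, but LOC109611312 had 19.6 CPM per kb of exon at day 1 and LOC105276973 had 19.03. Its lowest, median and highest values at day 8 were 0.353, 2.05 and 18.8 CPM in MinM, 0.936, 1.67 and 4.74 CPM in MinB, 0.374, 1.66 and 9.56 CPM in BinM, and 1.22, 2.897 and 6.696 CPM in BinB. At day 1 they were 3.001, 23.2 and 155 CPM in MinM, 3.47, 17.1 and 67.02 CPM in MinB, 8.62, 19.9 and 96.9 CPM in BinM, and 12.9, 28.3 and 66.1 CPM in BinB. The ages overlapped in MinM, MinB and BinM and not in BinB. LOC109611312 (chromosome 6, 16220637 to 16226591, minus strand) averaged 2.08 ± 1.03 CPM in MinM, 2.09 ± 0.8203 CPM in MinB, 2.08 ± 0.823 CPM in BinM, and 1.74 ± 0.474 CPM in BinB at day 8, and 15.1 ± 7.59 CPM in MinM, 12.5 ± 6.75 CPM in MinB, 14.5 ± 7.25 CPM in BinM, and 14.3 ± 5.46 CPM in BinB at day 1 (SD), and it shares its strand with the overlapping gene LOC113562149. LOC105288186, LOC113562924 and LOC105283427 had day 1 means between 1.76 and 3.92 CPM in all groups. Each of the 6 lies opposite another gene, so that without a stated strand setting their counts may hold reads of that gene.

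Members had a median gene span of 6.61 kb against 4.8 kb over all genes tested between the ages, a median exon length of 2.52 kb against 2.7 kb, and a median of 5 exon blocks against 6. Another gene overlapped on the opposite strand in 35 members (38.5%), against 35.5% of all genes tested, and on the same strand in 4 (4.396%), against 8.27%. The members lay on 11 of the 14 chromosomes, with 13 each on chromosomes 1 and 4, 12 each on 3 and 5, 11 on 6, 8 each on 8 and 11, 7 on 9, 4 on 7, 2 on 12 and 1 on 2. None lay on chromosomes 10, 13 or 14, which hold 669, 351 and 310 of the genes tested.

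Some members were near each other in the genome. Within 50 kb of another member lay 30 members (32.97%), in 13 clusters of 2 or 3 genes, where 633 (6.35%) of the 9965 other genes tested lay within 50 kb of a member. Directly neighbouring members formed 9 runs with 19 genes. The longest run held 3 genes on chromosome 3 within 12.025 kb, LOC105277471 (5379756 to 5383074) and LOC105277470 (5383132 to 5384609) on the plus strand and LOC105277469 (5384616 to 5391780) on the minus strand. LOC105277471 averaged 1.57 ± 0.5698 CPM in MinM, 1.75 ± 0.765 CPM in MinB, 1.55 ± 0.738 CPM in BinM, and 2.21 ± 1.33 CPM in BinB at day 8, and 12.1 ± 4.303 CPM in MinM, 13.4 ± 3.85 CPM in MinB, 11.05 ± 2.71 CPM in BinM, and 12.5 ± 3.45 CPM in BinB at day 1 (SD). For LOC105277470 the means were 1.14 ± 0.599 CPM in MinM, 1.15 ± 1.04 CPM in MinB, 1.07 ± 0.754 CPM in BinM, and 1.52 ± 0.599 CPM in BinB at day 8, and 14.4 ± 7.27 CPM in MinM, 16.8 ± 5.72 CPM in MinB, 12.8 ± 3.88 CPM in BinM, and 20.6 ± 14.3 CPM in BinB at day 1 (SD). LOC105277469 had 0.478 ± 0.216 CPM in MinM, 0.849 ± 0.393 CPM in MinB, 0.612 ± 0.219 CPM in BinM, and 0.671 ± 0.426 CPM in BinB at day 8, and 6.47 ± 2.28 CPM in MinM, 6.67 ± 2.23 CPM in MinB, 6.59 ± 1.46 CPM in BinM, and 6.87 ± 1.46 CPM in BinB at day 1 (SD). Per length, day 1 levels were 5.03 CPM per kb of exon for LOC105277471, 16.4 for LOC105277470 and 2.81 for LOC105277469, a narrower span than that of the cluster around LOC105275422. A cluster on chromosome 9 held LOC105285557, LOC105285556 and LOC105285555, the last inside the span of the second and on the opposite strand, and LOC105285555 spanned 0 to 1.17 CPM over the day 8 brains, against 0.6096 to 1048 CPM over the day 1 brains. The neighbourhood as a whole did not share the difference. The 633 other genes within 50 kb of a member had a median log2 fold change of -0.02, and 71 of them (11.2%) were at least 2-fold lower at day 8, against 5.07% of the 9332 genes farther away.

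**Figure D3:**
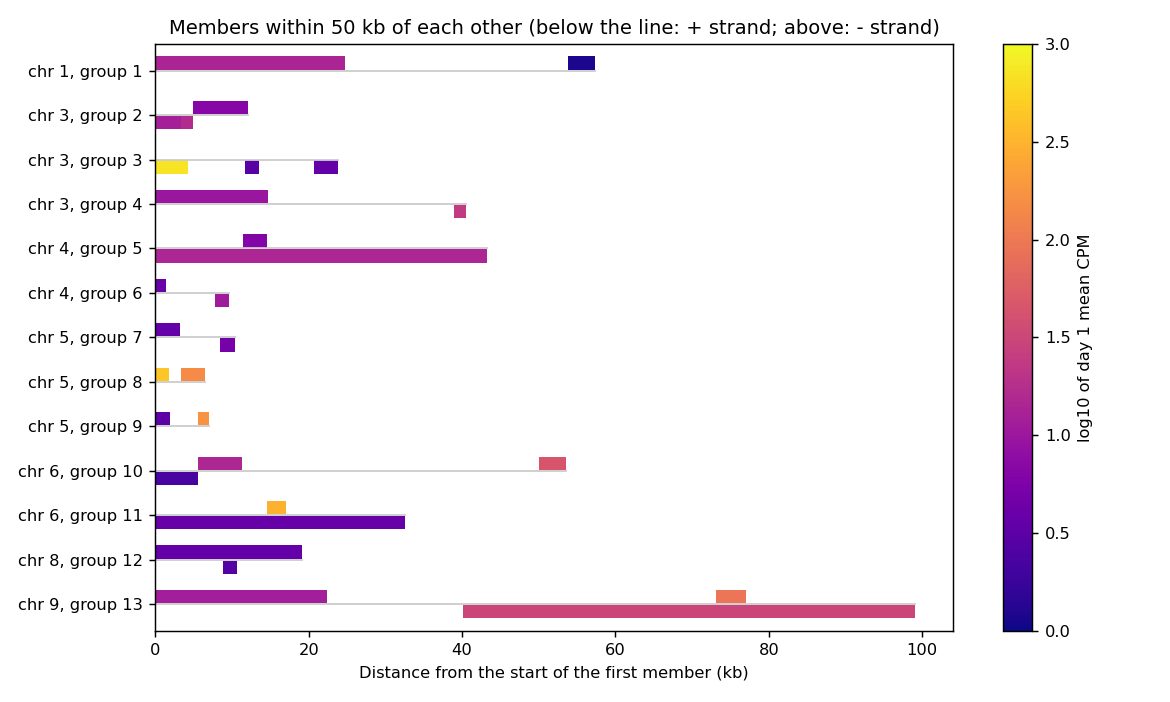
Members within 50 kb of each other, 1 cluster per row, drawn to scale by distance in kb from the start of the cluster's first member, with minus strand genes above and plus strand genes below each line. Colour gives the mean day 1 level as log10 of CPM: CPM within a cluster are near each other in the second cluster, and in the third LOC105275422 exceeds its neighbours by over 100 CPM.

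Brains of a group differed far more in these genes at day 1 than in other genes. The median coefficient of variation between day 1 brains was 0.851 in MinM, 1.06 in MinB, 0.604 in BinM and 0.831 in BinB over the members, against 0.146, 0.133, 0.137 and 0.190 over the other 8665 genes of at least 1 CPM at day 1. At day 8 the members' medians were 0.751, 0.738, 0.663 and 0.675, at much lower counts, against 0.156, 0.177, 0.110 and 0.121. The members were chosen for means of these same libraries, and genes with high values in a few day 1 brains more easily reach such a ratio, so the comparison with other genes describes the set and is no test. The summed CPM of the members had lowest, median and highest values at day 8 of 469.6, 634 and 756 CPM in MinM, 482, 654 and 786 CPM in MinB, 522, 616 and 792 CPM in BinM, and 599, 663 and 798 CPM in BinB. At day 1 they were 1790.4, 6519 and 13871 CPM in MinM, 2809, 5738 and 29160.4 CPM in MinB, 4345, 6029 and 11129 CPM in BinM, and 4303, 6393 and 14403 CPM in BinB. The ages did not overlap in any group, and the span at day 8 was narrow beside that at day 1. Without the libraries that stood apart, the day 1 sum reached 16443 CPM in MinB and had a lowest value of 5909 CPM in BinB, and the members' median coefficient of variation was 0.832 in MinM, 0.743 in MinB, 0.604 in BinM and 0.787 in BinB.

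The high and low values of many members lay in the same brains. In MinM at day 1, replicate 9 held the highest value of the group for 38 members (41.8%; 4.11% of the other genes), and replicate 17 the lowest for 36 (39.6%; 4.19% of the others). In MinB, replicate 12 held the highest value for 43 members (47.3%; 18.7% of the others) and replicate 8 for 23 (25.3%; 5.68%), and replicate 4 held the lowest for 49 (53.8%; 14.4%). In BinM, replicate 3 had the highest value for 31 members (34.1%; 10.4%). In BinB, replicate 2 had the highest value for 42 (46.2%; 9.91%) and replicate 9 the lowest for 47 (51.6%; 37.4%). MinB replicate 12 and BinB replicate 9 are among the libraries that stood apart over all genes, whereas MinM replicates 9 and 17, MinB replicates 4 and 8, BinM replicate 3 and BinB replicate 2 are not. MinM replicate 17 had 21.3 megacounts and 10822 genes detected, and replicate 9 had 22.2 megacounts and 11172, and their summed CPM was 1790.4 and 13871.

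Across day 1 brains of 1 group, the levels of the 6 members with the largest falls went together, LOC113562088 less closely than the others. The 6 genes were chosen by means of the same brains, and high values shared by a few brains raise such means. Correlations are therefore given as a description without p-values. All 15 pairs were compared on log2(CPM + 0.1). In MinM (20 brains), Pearson's r ran from 0.30 to 0.997 with a median of 0.809, and Spearman's rho from 0.365 to 0.989 with a median of 0.851. In MinB (14 brains), r ran from 0.488 to 0.995 with a median of 0.922, and rho from 0.486 to 0.996 with a median of 0.912. The neighbours LOC113561968 and LOC105287113 had an r of 0.997 and a rho of 0.989 in MinM. LOC109611483 lies elsewhere on their chromosome and LOC105275422 on another, and that pair had an r of 0.982 and a rho of 0.938 in MinM, and an r of 0.982 and a rho of 0.987 in MinB. The pair of LOC113562088 with LOC113562077 had an r of 0.30 and a rho of 0.365 in MinM, and an r of 0.488 and a rho of 0.4901 in MinB. Over all pairs that held LOC113562088, rho was between 0.365 and 0.714 in MinM and between 0.486 and 0.521 in MinB. Without the 2 brains farthest from the median of the first gene, the median r was 0.756 in MinM and 0.8004 in MinB, and the median rho 0.808 and 0.8601. Without MinB replicate 12, the MinB medians were 0.901 for r and 0.8901 for rho. Over all pairs of members the median rho at day 1 was 0.409 in MinM, 0.4945 in MinB, 0.167 in BinM and 0.429 in BinB, where it was between 0.036 and 0.071 over all pairs of genes of at least 1 CPM. At day 8 the medians over member pairs were 0.079, 0.039, 0.097 and 0.042. All genes of a brain share its library, and the part of depth or dissection in these correlations was not tested.

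**Figure D4:**
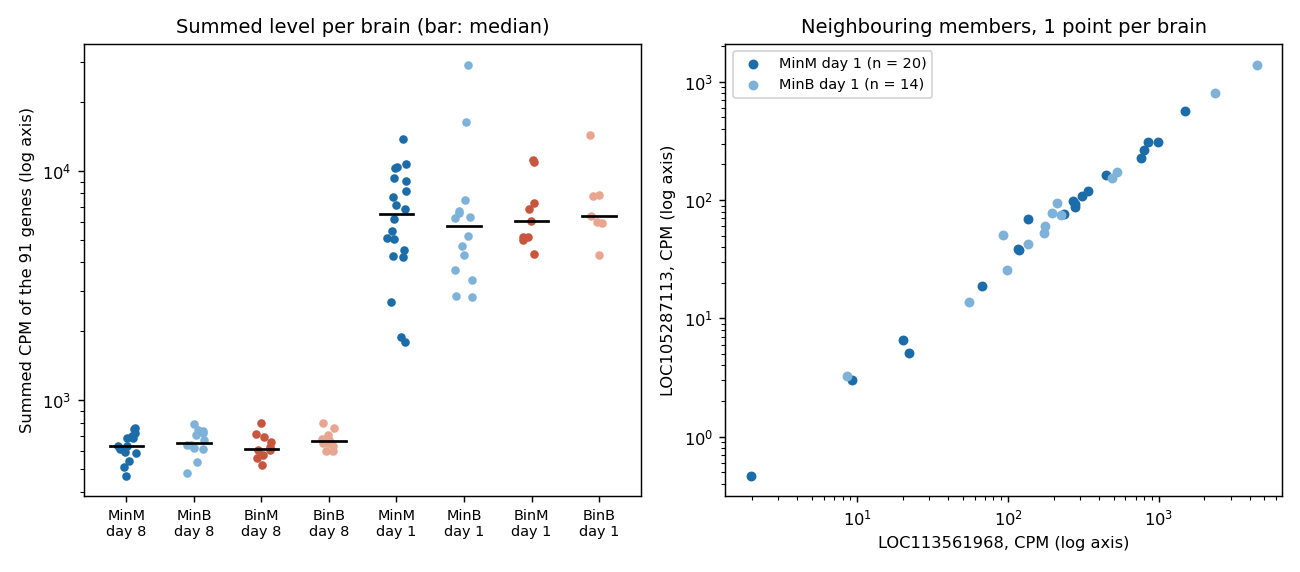
Left, summed CPM of the 91 genes per brain (log axis) by group with medians as bars, all day 8 brains between 469.6 and 798 and all day 1 brains between 1790.4 and 29160. Right, CPM of the neighbours LOC113561968 and LOC105287113 in the same brain (log axes), 1 point per MinM or MinB brain of day 1, in which the points follow 1 line from the lowest to the highest brain.

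The next comparison asked whether the ant's own genotype mattered for these genes within an age, a contrast that the rule did not use directly. The rule did require every group of either genotype to reach 1 CPM at day 1 and to meet its limit. Genes that were low or did not fall enough in 1 genotype were left out, so the choice was not independent of this contrast. At day 1 all 91 members were tested and 5 were called between genotypes M and B, all lower in M (edgeR's quasi-likelihood test, Benjamini-Hochberg adjusted over all genes). Of all 9834 genes tested, 14.8% were called and 7.52% were called as lower in M, and the members' share was below both. The rule limits this comparison, as do the wide intervals of the members. The median half-width of the 95% interval was 0.76 over the members and 0.14 over all genes. In all, 14 of the 91 members had an unadjusted edgeR p under 0.05, against 2918 of all 9834 genes tested. The largest difference was that of the lncRNA LOC105277613 (chromosome 7, 2598656 to 2604403, plus strand; LOC105277614 lies on the opposite strand). Its day 1 values, as lowest, median and highest, were 0, 1.11 and 4.23 CPM in MinM, 0, 0.929 and 4.44 CPM in MinB, 0.708, 4.16 and 6.89 CPM in BinM, and 1.48, 5.53 and 41.2 CPM in BinB. The M medians were below the B medians in either environment, and the genotypes overlapped. The log2 difference of M minus B was -2.40 ± 0.40 (SE; edgeR adjusted p = 1.3e-05). At day 8 this gene was near 0 in all groups, with means of 0.106 CPM in MinM, 0.104 CPM in MinB, 0.176 CPM in BinM, 0.275 CPM in BinB, and its lower day 1 level in M went with smaller folds between the ages, 6.62-fold in MinM, 5.67-fold in MinB, 13.9-fold in BinM, and 28.2-fold in BinB.

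LOC105275345 (chromosome 11, 13018595 to 13020626, plus strand) was the second. At day 1 its lowest, median and highest values were 0.657, 2.37 and 35.8 CPM in MinM, 0.2202, 2.24 and 20.5 CPM in MinB, 1.09, 5.86 and 33.8 CPM in BinM, and 1.34, 13.7 and 72.03 CPM in BinB. The genotypes overlapped in both environments, and medians in M were below those in B. The log2 difference was -1.43 ± 0.49 (SE; edgeR adjusted p = 0.0409). Its folds between the ages were 8.09-fold in MinM, 6.49-fold in MinB, 15.1-fold in BinM, and 34.9-fold in BinB. The other 3 called members were chosen for mention after their values were seen. LOC105282831 averaged 7.39 ± 7.38 CPM in MinM, 8.74 ± 8.71 CPM in MinB, 13.4 ± 9.75 CPM in BinM, and 25.6 ± 29.4 CPM in BinB (SD) at day 1, a log2 difference of -1.18 ± 0.37 (SE; edgeR adjusted p = 0.0263). LOC105284074 averaged 10.1 ± 5.95 CPM in MinM, 9.75 ± 4.26 CPM in MinB, 12.4 ± 5.704 CPM in BinM, and 20.7 ± 10.4 CPM in BinB (SD), a difference of -0.68 ± 0.21 (SE; edgeR adjusted p = 0.0260). LOC105284673 averaged 10.4 ± 2.91 CPM in MinM, 9.44 ± 2.48 CPM in MinB, 12.5 ± 2.85 CPM in BinM, and 14.1 ± 2.94 CPM in BinB (SD), a difference of -0.41 ± 0.11 (SE; edgeR adjusted p = 0.0107). Over the 91 members the median difference was 0.00 with 46 positive, and this split rested on 1 library. Without MinB replicate 12 the median was -0.16 with 29 positive, and without all the libraries that stood apart it was -0.24 with 26 positive. DESeq2 called 8 of the 91 members at day 1, 6 lower and 2 higher in M, against 1671 of all 11366 genes it tested.

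At day 8, 55 members passed the filter on low counts and 2 were called, both lower in M. Of the 9472 genes tested, 8.45% were called and 4.29% were called as lower in M. The same limits hold here, with a median half-width of 0.45 over the members and 0.14 over all genes. DESeq2, which tested 85 members, called 7, of which 5 were lower and 2 higher in M, against 1006 of all 11264 genes it tested. The other 36 members did not pass the filter for edgeR. In LOC105285658 (chromosome 8, 14965346 to 14982130, minus strand), lowest, median and highest values at day 8 were 0.0498, 0.309 and 0.653 CPM in MinM, 0.199, 0.578 and 1.38 CPM in MinB, 0.0628, 0.673 and 3.53 CPM in BinM, and 0.3395, 0.744 and 3.27 CPM in BinB. The M medians were below the B medians, and the ranges overlapped. Its log2 difference was -1.16 ± 0.30 (SE; edgeR adjusted p = 0.00757). The day 1 means of this gene were 69.9 CPM in MinM, 30.2 CPM in MinB, 74.1 CPM in BinM, 92.2 CPM in BinB, and it was not called at that age. LOC105282762 (chromosome 1, 8875295 to 8879066, minus strand; LOC105282761 lies on the opposite strand) averaged 5.18 ± 1.19 CPM in MinM, 5.74 ± 1.12 CPM in MinB, 6.95 ± 2.81 CPM in BinM, and 7.21 ± 1.78 CPM in BinB (SD), a log2 difference of -0.36 ± 0.11 (SE; edgeR adjusted p = 0.0330). That call was lost without the libraries that stood apart, at -0.22 with an edgeR adjusted p of 0.149. Whether a genotype difference at 1 age differed from that at the other was not tested.

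**Figure D5:**
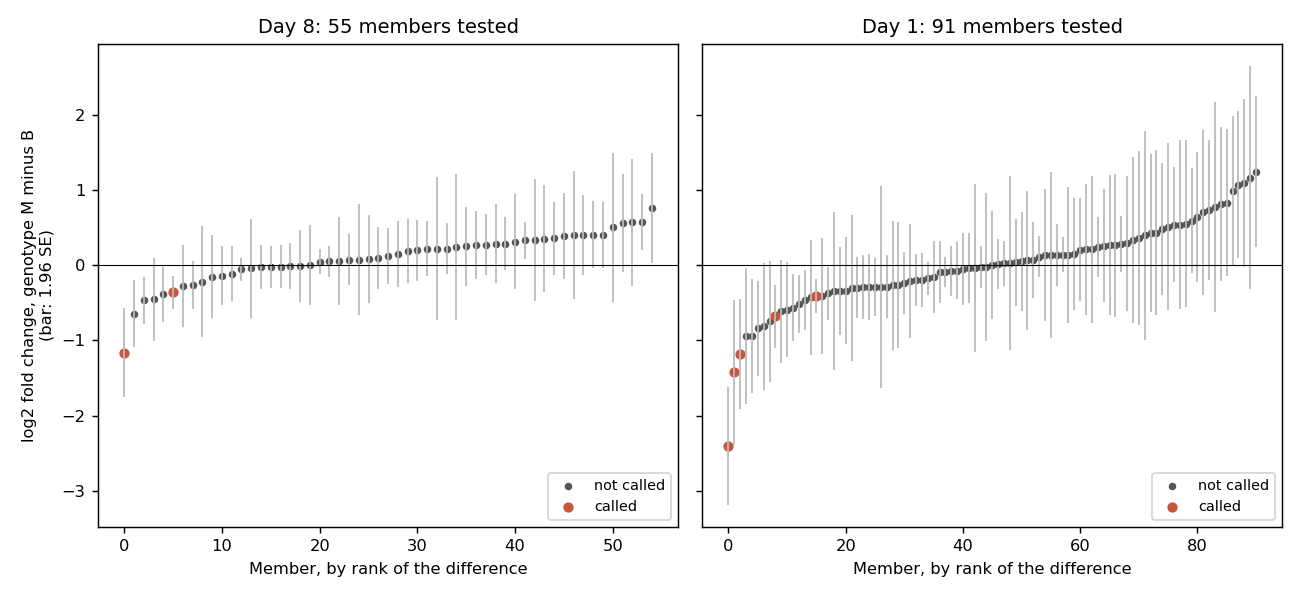
Log2 fold change of genotype M over B for each member tested, at day 8 (left, 55 members) and day 1 (right, 91 members), by rank, with bars for 95% intervals and the called members in red. The 2 called at day 8 and the 5 called at day 1 are below 0, and most bars at day 1 are wide and cross 0.

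The genotype of the social environment is the question of the study's title. By edgeR it was called in none of the 91 members at day 1 and in none of the 55 at day 8. By DESeq2 it was called in 0 members at either age. An unadjusted edgeR p under 0.05 was found for 9 of the 91 and 8 of the 55. Over all genes tested, 655 of 9834 had such a p at day 1 and 314 of 9472 at day 8. The members' counts were not tested against these. Of all genes tested, 0.0102% were called at day 1 and 0% at day 8. The interaction of genotype and environment was called in 0 members at either age. At each age 2 members had an unadjusted edgeR p under 0.05, against 614 of 9834 genes tested at day 1 and 223 of 9472 at day 8. DESeq2 called 0 members, and edgeR called 0% of all genes at both ages. These tests were much less precise for the members than for other genes at day 1. The median half-width of the 95% interval of the log2 difference between environments was 0.76 over the members and 0.14 over all genes at day 1, and 0.45 and 0.14 at day 8. The interaction had half-widths of 1.53 over the members and 0.29 over all genes at day 1, with 0.89 and 0.27 at day 8. For a member of typical precision, an estimated difference smaller than these half-widths has 0 inside its 95% interval, and a true difference of that size can be missed. Some members had narrower intervals. The half-widths hold for a single unadjusted test, and a call after adjustment over all genes needed a larger difference. The median difference between environments M and B over the members was -0.30 at day 1 and -0.14 at day 8 on the log2 scale, where the medians over all genes were near 0. Without MinB replicate 12 the day 1 median was -0.05. For the interaction at day 1, the median over the 91 members was 0.20 with 59 positive, where the median over all genes was 0.01. Without MinB replicate 12 it was 0.44 with 78 positive. Without all the libraries that stood apart it was 0.57 with 81 positive. These medians were not tested.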

How the data were processed

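The values analysed are raw counts per gene in 96 brains, in 1 table as deposited by the authors. The labels name a stranded mRNA kit from KAPA. STAR 2.7.8a and featureCounts are the tools listed in the submitters' processing notes. Neither strand setting, multi-mapped reads nor genome build are described in the sources used here. Coordinates are those of the deposited table, and gene classes come from the RefSeq annotation table.

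CPM are counts over the column total, without further scaling. Contrasts within an age were tested with edgeR 4.0.16 (R 4.3.3), a quasi-likelihood F test on the 4 groups of the age with TMM scaling, the filterByExpr filter (minimum count 10), robust dispersion and Benjamini-Hochberg adjustment over all genes, called under 0.05. Replicates are separate individuals per the labels, and the labels do not say which of them shared a colony, so p-values treat individuals as independent. Alternatives were other scalings, DESeq2 1.42.0, other filters, left-out libraries and a block by title number. The labels do not say whether title numbers pair libraries of different groups, and the correlations given below do not settle it. A library stood apart where 1 minus its median rank correlation with the other libraries of its age was over the median plus 5 median absolute deviations.

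The members, lists and tests were chosen with earlier results of these data known. Genes named were the 6 with the highest CPM at day 1, the 6 with the largest fall and the 3 nearest to the limit on each side. Also named were the called members with the largest differences and those with the smallest and largest spread over the MinM day 1 brains. The 2 lncRNAs of highest CPM and the longest run of neighbours were named as well. Any others were named with their values seen. Lists by product name and cell type markers were void, since the identifiers were paired with no names.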

Additional observations from a re-analysis of the deposited data

Results flagged for a closer look

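In groups of 4 to 10 libraries, the named members were examined for 1 library far from the rest of its group on log2(CPM + 0.1), by Dixon's limit. Of 104 such groups 11 had one, where chance gives about 1 in 20. At day 8, BinM replicate 2, a library that stood apart over all genes, was lowest for LOC105274974 with 0.0935 CPM (next 0.741), for LOC105277891 with 1.496 CPM (next 6.53), for LOC105277470 with 0 CPM (next 0.498) and for LOC105275345 with 0 CPM (next 0.377). BinB replicate 7 of day 8 was also at 0 CPM for LOC105275345 (next 0.223). At the upper end of day 8, BinB replicate 2 had 3.27 CPM of LOC105285658 (next 1.19), a gene called as lower in M at that age, and BinB replicate 6 had 0.243 CPM of LOC113562088 (next 0.0744). At day 1, BinB replicate 9, which also stood apart over all genes, was lowest for LOC105277400 with 179 CPM (next 399.9) and for LOC105277891 with 27.1 CPM (next 54.2). BinB replicate 1 had 980 CPM of LOC105287190 (next 1859). BinM replicate 6 had 26.8 CPM of LOC105287229, where the next brain had 0.926 CPM.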

How the results depend on the processing

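The set of members depended on its rule. With an offset of 1 CPM in place of 0.1 CPM, 49 genes met it, all among the 91. With TMM-scaled CPM 102 met it, and with group medians 73, of which 69 were among the 91, so that 22 of the 91 were lost. With a limit of 0.2 there were 69 and with 0.3 there were 112. Members called between genotypes at day 1 numbered 8 with DESeq2 (6 lower and 2 higher in M) and 2 with the replicate block by title number (both lower), against 5 (all lower). Over all genes tested, DESeq2 called 1671 of 11366 and the block 992 of 9834, against 1452 of 9834. The median difference over the members was -0.34 under the block, against 0.00. Day 1 libraries of the same number correlated with a median of 0.0402 over 52 pairs (range -0.571 to 0.694). Those of different number had a median of -0.0025 over 835 pairs (range -0.643 to 0.674). Of 44 libraries with a number shared by another group, 7 were closest to a library of their own number. The count that chance would give was not worked out. LOC105275345, LOC105282831 and LOC105284074 were past the threshold under 7 of 8 alternatives and lost under the block. At day 8 the count was 7 with DESeq2 (5 lower and 2 higher in M), which tested more members, and 0 with a filter at 10 CPM, which left 7 members to test and neither called gene among them. Over all genes tested at day 8, DESeq2 called 1006 of 11264, and 515 of 7214 were called with the filter at 10 CPM. The median summed CPM at day 8 without LOC105287190, the member with the most counts at day 1, was 482 in MinM, 513 in MinB, 487 in BinM and 502 in BinB. The limit was the SD of the group for a summed level and a change of over 1.5 times for a count. None of the other 65 alternative values moved past its limit, and no value for a named gene reversed. Without LOC105287190, median day 1 sums were 4610 CPM in MinM, 3985 in MinB, 4068 in BinM and 4276 in BinB. With it they were 6519, 5738, 6029 and 6393 CPM. These differences stayed within the limit because the SDs at day 1 ran from 2530 to 7082 CPM. Leaving out MinB replicate 12 of day 1 was added after seeing the data. Without it 6 members were called between genotypes at day 1, as were 1444 of all 9819 genes tested. Depth limits the day 8 values: 36 of the 91 members did not pass edgeR's filter on low counts at that age. Without a filter edgeR tested all 91 at day 8 and called 3 between genotypes, against 855 of 12747 genes tested. Intervals cover the spread between individuals of unknown colony.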

Other observations

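With the ages exchanged and a milder limit, 192 genes had a day 8 mean of at least 1 CPM and were at least 2-fold higher at day 8 in all 4 groups. The offset was the same 0.1 CPM, whereas the 91 falling genes met the stricter ratio of 0.25. Across day 1 brains, the median log2(CPM + 0.1) of the 91 falling genes and of the 192 rising genes ran in opposite directions in the M groups and in the same direction in BinB. Pearson's r was -0.59 in MinM (n = 20 brains), -0.36 in MinB (n = 14), -0.18 in BinM (n = 9) and 0.81 in BinB (n = 7), and Spearman's rho was -0.37, -0.45, -0.23 and 0.89. Both medians come from 1 library per brain, the genes were chosen on these libraries, and the values are given as a description without a test. Without the 2 brains farthest from the median, r was -0.50, -0.41, -0.40 and 0.55.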
